A study of Mus musculus with 10 samples.

Results

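Malat1, Neat1, Miat, Snhg11, Tug1, Pantr1 and Gas5 are long noncoding RNAs, most of them known for staying in the cell nucleus, and their levels were examined in RNA bound to tagged ribosomes of hippocampal mossy cells. They were picked by gene symbol, 7 of the 54838 genes counted, and all 7 passed the filter on low values that left 16806 genes for testing. They were ranked by mean level among the 1488 tested genes that the annotation classes as long noncoding, with Snhg11 added. Malat1 had the highest level, Gas5 the 3rd, Snhg11 the 6th and Tug1 the 14th highest, and Neat1, Miat and Pantr1 ranked 27, 39 and 44. Snhg11 carries the protein-coding class in the annotation used here, although it is usually treated as a noncoding host of small nucleolar RNAs. The word abundant therefore suited Malat1 and Gas5, which ranked 2 and 65 of all tested genes by mean level, better than Neat1, Miat and Pantr1, which ranked 2937, 3852 and 4017. Nuclear retention itself was not measured in these libraries, and Gas5 and Tug1 are also known from the cytoplasm.

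The mice were C57BL/6 males about 10 weeks old of the MC-TRAP genotype (Drd2-Cre;Eef1a1LSL.eGFPL10a/+), in which Cre expressed from Drd2 regulatory sequence turns on an EGFP-tagged L10a ribosomal protein, mainly in mossy cells of the dentate hilus. The tag was immunoprecipitated from the dorsal and the ventral hippocampus (translating ribosome affinity purification, TRAP), which gave 5 dorsal and 5 ventral libraries, each from tissue pooled over 5 mice. Each hippocampus was divided into a dorsal and a ventral part, so both groups draw on the same mice. Both groups carry the same transgenes, and the ventral subiculum was cut away from the ventral tissue. The driver also marks sparse interneurons and subicular neurons, and a precipitate can carry RNA of untagged cells, so a level here is that of a precipitate and not of a pure cell type. In such bulk samples, fewer cells of a type and less RNA per cell cannot be told apart. Of 7 mossy cell markers all were detected, Drd2 at 28.1 ± 3.95 counts per 1e6 (CPM) in dorsal against 20.7 ± 4.36 CPM in ventral libraries (SD, n = 5 each).

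Long noncoding RNAs of the nucleus differ in where they sit and what they bind. Malat1 is held in nuclear speckles, bodies rich in splicing factors, and Neat1 is the scaffold of paraspeckles, which assemble around it with proteins such as NONO and SFPQ. Miat, also called Gomafu, is a neuronal RNA that binds the splicing factors SF1 and QKI. Gas5 and Snhg11 are host genes whose introns release small nucleolar RNAs, and spliced Gas5 is known to engage ribosomes and to be degraded by nonsense-mediated decay. Tug1 is a spliced RNA found on both sides of the nuclear envelope, and Pantr1 is transcribed divergently from Pou3f3, a POU-domain transcription factor gene of the forebrain. They are regarded as noncoding, and a precipitate of ribosomes can hold RNA that is not being translated.

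The sequence features for which Miat, Neat1, Malat1 and Gas5 are known could be read in the reference, and they are shown because the known handling of these RNAs rests on them. Miat is known for copies of the letters TACTAAC, which resemble the intronic branch point that SF1 recognises. On the sense strand of its longest annotated transcript of 9163 bases in 7 exons, 6 non-overlapping copies were found, in a pair of clusters. Of the 1488 tested long noncoding genes, 6.99% held at least 1 copy in their longest transcript and 2, or 0.134%, held 6 or more, Miat among them. Neat1 held 1 copy, and Malat1, Snhg11, Tug1, Pantr1 and Gas5 held none. Both clusters are printed from GENCODE transcripts of GRCm38, minus strand, with the copies in capitals, the first lying at chr5:112217307-112217462 and the second at chr5:112216750-112216814, each within 1 exon.
Miat, first cluster: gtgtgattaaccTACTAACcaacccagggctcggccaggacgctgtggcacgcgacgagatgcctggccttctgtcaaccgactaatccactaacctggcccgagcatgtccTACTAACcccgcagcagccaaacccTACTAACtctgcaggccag
Miat, second cluster: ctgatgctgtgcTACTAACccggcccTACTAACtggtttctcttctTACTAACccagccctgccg

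Malat1 and the long form of Neat1 are known to end without a classical poly(A) tail, while a short form of Neat1, counted under the same gene, is polyadenylated. The 3′ ends of the former are cut by RNase P, and an A-rich stretch encoded in the genome folds with U-rich stretches before it into a protective triple helix. The last 11 letters of the Neat1 transcript, AAAAAGCAAAA, were taken as the longest end of Neat1 also found in Malat1, so their presence there was set by this choice. They occurred once in Malat1, 292 bases before the end of its annotated model. Searched over whole transcripts of any length, they were found in 9 of the 1488 tested long noncoding genes, Neat1 and Malat1 included (0.605%). The U-rich letters TTTTGCTTTT preceded them in both RNAs and were found in 2.76% of those genes, while TTTCTTTT, also present in both, was found in 24.5%. The 100 bases that end in the shared letters are printed on the minus strand of GRCm38, with these 3 sets of letters in capitals. They lie at chr19:5824708-5824807 for Neat1 and at chr19:5795982-5796081 for Malat1.
Neat1, 3′ end: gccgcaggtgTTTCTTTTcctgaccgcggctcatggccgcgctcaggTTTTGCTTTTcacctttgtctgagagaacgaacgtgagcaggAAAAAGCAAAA
Malat1, matching stretch: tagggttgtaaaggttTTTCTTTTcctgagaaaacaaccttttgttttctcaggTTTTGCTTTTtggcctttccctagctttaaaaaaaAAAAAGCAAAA

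Gas5 is known as a gene of the 5′ terminal oligopyrimidine class, whose transcripts start with a C and a run of pyrimidines, as those of ribosomal protein genes do. At the RefSeq start on the plus strand of GRCm38.p6 at chr1:161035166, the genomic sequence began with 5 pyrimidines, shown in capitals. The 40 bases printed are genomic and were not checked for the end of the exon, so the later ones may lie outside the spliced RNA. A C followed by pyrimidines over at least 5 letters was found at 2.51% of the 32851 RefSeq starts. The other Gas5 start listed began with G, and the starts of Malat1, Snhg11 and Tug1 had runs of 1, 0 and 0 pyrimidines, while that of Miat had 6. Starts of Neat1 and Pantr1 were not analysed here.
Gas5, first 40 bases: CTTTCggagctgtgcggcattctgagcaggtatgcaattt

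Counts on genes ranged from 11138676 to 20594364 per library, so that 3 counts, the smallest level taken as detectable, correspond to 0.141 to 0.282 CPM, and all 7 RNAs were above this floor in every library. The libraries differed between the groups in a measure that bears on noncoding RNA. Read pairs that overlap no counted feature form a class of their own in the HTSeq output. The counted features are exons by default, so this class can hold pairs from introns as well as from between genes, and the setting used is not given in the sources used here. The no-feature share was 21.8, 29.1, 33.9, 22.2 and 28.0% in dorsal replicates 1 to 5 and 11.6, 13.4, 19.3, 14.7 and 12.7% in ventral replicates 1 to 5. The means were 27.0 ± 5.09% and 14.4 ± 3.0% (SD, n = 5 each, two-sided exact permutation p = 0.00794, the smallest that 5 against 5 allow), and every dorsal library lay above every ventral one. Mitochondrially encoded messenger RNAs summed to 2962 ± 315 CPM in dorsal against 789 ± 306 CPM in ventral libraries (same exact permutation p). The exact permutation tests of this report treat all 10 libraries as independent, although both groups draw on the same mice.

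Between dorsal and ventral precipitates, 4 of the 7 RNAs were dorsal-enriched: Malat1, Miat, Snhg11 and Neat1, by 5.70, 4.80, 2.43 and 2.23 times. None was ventral-enriched. Tug1, Pantr1 and Gas5 did not pass the thresholds. Enrichment was called where edgeR's quasi-likelihood test gave an adjusted p below 0.05 (Benjamini-Hochberg, over all tested genes) and the group means of CPM, with 1 added to each, differed by more than 0.58 on the log2 scale. By the same rule 15.7% of all tested genes were dorsal-enriched and 9.85% ventral-enriched, 2636 and 1655 genes, and with a correction for GC content and length the numbers were 2127 and 2637. Among long noncoding classes alone the shares were 31.2% dorsal-enriched and 10.1% ventral-enriched, against 11.4% and 10.3% of protein-coding genes, so 4 of 7 has to be read beside a class in which dorsal calls were common. The median log2 fold change was 0.46 over the 1488 long noncoding genes and -0.04 over the 13549 protein-coding genes. Replicates are pools of mice, and whether pools with equal numbers come from the same mice is not stated.

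**Figure D1:**
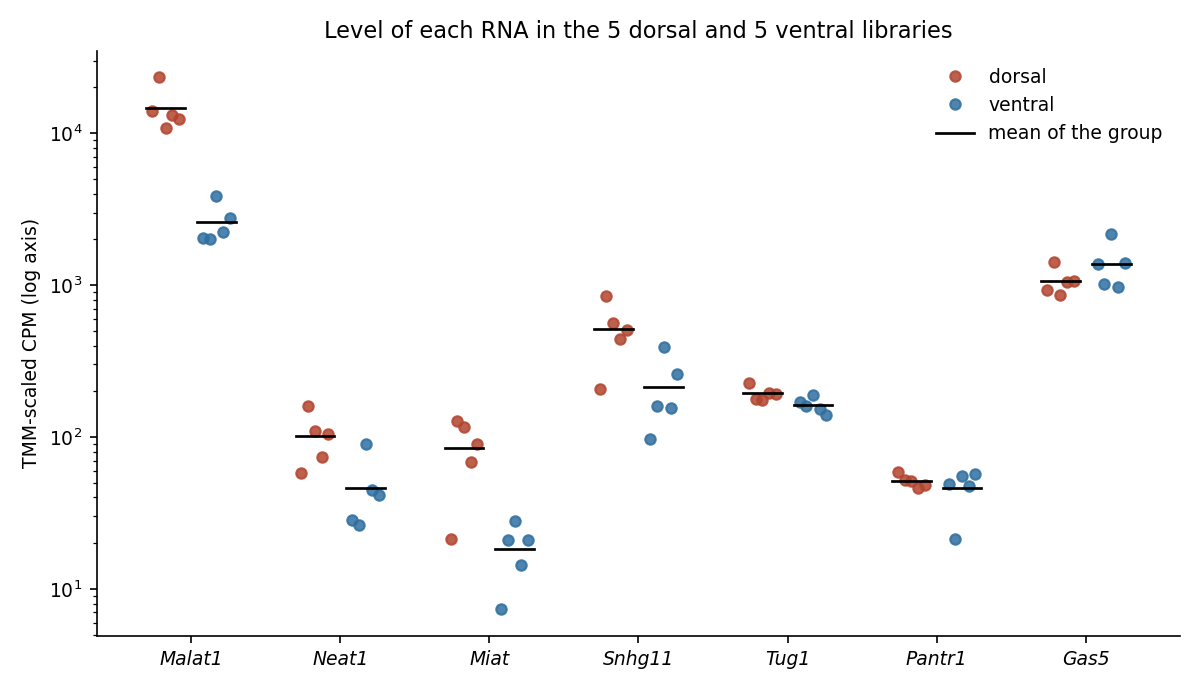
Level of each RNA in every library, in CPM scaled by edgeR's TMM factors on a log axis, with 1 point per library (5 dorsal in red, 5 ventral in blue, replicates 1 to 5 from left to right in each group) and a black line at the mean. Malat1 is the RNA whose dorsal points, from 10786 to 23296 CPM, all lie above its ventral points, from 2025 to 3835 CPM, while the groups of the other 6 RNAs overlap.

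Malat1 (ENSMUSG00000092341), the speckle RNA, is a single exon of 6983 bases on the minus strand of chr19:5795690-5802672 in GRCm38. Dorsal replicates 1 to 5 held 13930, 23296, 10786, 13249 and 12387 CPM of it, against 2043, 2025, 3835, 2245 and 2782 CPM in the ventral replicates 1 to 5. Dorsal replicate 2 stood highest, and the lowest dorsal library was still above the highest ventral one, a separation with dorsal above found in 9.81% of all tested genes, while 8.36% had ventral above. The log2 fold change was 2.51 (SE 0.22, 95% confidence interval 2.04 to 2.98, edgeR adjusted p = 1.03e-05). Malat1 was the 1st or 2nd most counted gene in each dorsal library and ranked between 10 and 30 in the ventral ones. It alone took 1.15 to 2.31% of the counts on genes in dorsal and 0.197 to 0.370% in ventral libraries. Of the summed level of the 7 RNAs it made up 85.2 to 90.3% in dorsal and 54.1 to 61.9% in ventral libraries.

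Neat1 (ENSMUSG00000092274), the paraspeckle RNA, lies next to Malat1 on the same strand, at chr19:5824708-5845478, and its 20771 bases are also counted as 1 exon. Dorsal replicates 1 to 5 held 57.8, 160.6, 109.7, 74.3 and 104.3 CPM of it, against 28.5, 26.3, 90.3, 45.1 and 41.3 CPM in the ventral replicates 1 to 5. Ventral replicate 3 reached into the dorsal range, and the dorsal library was the higher in 23 of the 25 pairings of a dorsal with a ventral library. The log2 fold change was 1.16 (SE 0.32, edgeR adjusted p = 0.0131). The ratio of Malat1 to Neat1 within a library was 98.4 to 241 in dorsal and 42.4 to 77.1 in ventral libraries, without overlap. All other ratios taken between pairs of these RNAs overlapped between the groups. Malat1 over Miat was 92.3 to 656 in dorsal and 96.0 to 277 in ventral libraries. Malat1 over Snhg11 was 19.1 to 67.4 in dorsal and 9.79 to 21.2 in ventral libraries. How often ratios of other genes separate the groups was not examined. The separation by the ratio of the 2 neighbouring genes is therefore a description only.

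Miat (ENSMUSG00000097767), the RNA with the TACTAAC clusters, lies on the minus strand at chr5:112213228-112229395. Dorsal replicates 1 to 5 held 21.2, 127.0, 116.9, 68.9 and 90.5 CPM of it, against 7.4, 21.1, 28.0, 14.3 and 21.1 CPM in the ventral replicates 1 to 5. Dorsal replicate 1 lay inside the ventral range and the other 4 dorsal libraries above it, and 24 of the 25 pairings had the dorsal library higher. The log2 fold change was 2.26 (SE 0.39, edgeR adjusted p = 0.000997). Miat varied more within the dorsal group than any other of the 7 RNAs, by 5.98 times between the lowest and the highest library.

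Snhg11 (ENSMUSG00000044349), a neuronal host gene of small nucleolar RNAs, lies on the plus strand at chr2:158375638-158386145. Dorsal replicates 1 to 5 held 206.7, 841.5, 564.9, 443.8 and 507.4 CPM of it, against 96.5, 158.9, 391.5, 155.8 and 258.1 CPM in the ventral replicates 1 to 5. The groups overlapped through dorsal replicate 1 and ventral replicates 3 and 5, with 23 of 25 pairings higher in dorsal. The log2 fold change was 1.28 (SE 0.36, edgeR adjusted p = 0.0147).

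Tug1 (ENSMUSG00000056579, minus strand, chr11:3639785-3649673) varied little from library to library. Dorsal replicates 1 to 5 held 226.9, 178.5, 176.4, 194.3 and 192.0 CPM of it, against 169.9, 159.1, 189.7, 152.0 and 139.6 CPM in the ventral replicates 1 to 5. The log2 fold change was 0.26 (SE 0.11, 95% confidence interval 0.02 to 0.49, edgeR adjusted p = 0.0805), short of both thresholds, and it turned to -0.44 (adjusted p = 0.00737) once GC content and length were corrected for. Tug1 has the lowest GC content of the 7 transcripts, 37.9%.

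Pantr1 (ENSMUSG00000060424, minus strand, chr1:42590782-42694842) was at 58.7, 52.2, 51.5, 46.2 and 48.6 CPM over dorsal replicates 1 to 5, and at 48.7, 21.2, 55.5, 47.7 and 57.2 CPM over ventral replicates 1 to 5. Apart from ventral replicate 2, the groups covered nearly the same range. The log2 fold change was 0.14 (95% confidence interval -0.29 to 0.56, edgeR adjusted p = 0.626), and -0.03 without ventral replicate 2, so neither a direction nor equality was shown.

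Gas5 (ENSMUSG00000053332, plus strand, chr1:161034422-161038539) was the one RNA with a higher ventral mean. Dorsal replicates 1 to 5 held 931.3, 1411, 855.0, 1050 and 1068 CPM of it, against 1380, 1009, 2178, 969.3 and 1396 CPM in the ventral replicates 1 to 5. The groups overlapped widely, and the log2 fold change of -0.38 (SE 0.20, 95% confidence interval -0.80 to 0.04) did not pass, with an edgeR adjusted p of 0.147. With GC content and length corrected for, Gas5 was called ventral-enriched (log2 fold change -0.65, adjusted p = 0.0168).

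Per kilobase of annotated exon, Malat1 led in dorsal libraries at 2109 ± 706 CPM per kb (SD, n = 5), followed by Gas5 at 282.8 ± 56.7, Snhg11 at 60.2 ± 26.8, Tug1 at 19.9 ± 2.08, Pantr1 at 11.5 ± 1.06, Miat at 9.14 ± 4.54 and Neat1 at 4.88 ± 1.90. From Malat1 to Pantr1 the ranges of neighbours in this order did not overlap, and those of Pantr1, Miat and Neat1 did. In ventral libraries Malat1 and Gas5 stood level, at 370.3 ± 109 and 368.7 ± 129 CPM per kb (SD, n = 5), with overlapping ranges. The ventral order went on with Snhg11 at 24.9 ± 13.6 and Tug1 at 16.6 ± 1.95, whose ranges overlapped, then Pantr1 at 10.3 ± 3.25 and, apart from it, Neat1 and Miat at 2.23 ± 1.25 and 1.98 ± 0.84 CPM per kb. Length here is the union of all annotated exons, which for Miat, Snhg11, Tug1, Pantr1 and Gas5 exceeds the longest single transcript and lowers their values. For Neat1 it is the 20771 bases of the long form, although the short form is counted under the same gene. Its value per kilobase can be too low for that reason, and its place in these orders is uncertain.

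The relation of each RNA to the no-feature share was described within each group, because the groups form separate ranges of that share. Miat, Neat1 and Snhg11 were mostly higher in libraries with a larger share in both groups, while Malat1 mostly did so in ventral libraries, Tug1 stood in the reverse order of the share among dorsal libraries, and Pantr1 and Gas5 had no clear order. Among the 10 pairs of dorsal libraries, 9 stood in the same order by level and by share for each of Neat1, Miat and Snhg11, against 3 for Malat1, 6 for Gas5, 5 for Pantr1 and 0 for Tug1. Dorsal replicate 1, with the smallest dorsal share, was the lowest dorsal library for all 3. Among the 10 ventral pairs the counts were 8 for Neat1 and Miat, 7 for Snhg11 and Malat1, 6 for Tug1 and 5 for Pantr1 and Gas5, and ventral replicate 3, with the largest ventral share, was the highest ventral library for Malat1, Neat1, Miat, Snhg11, Tug1 and Gas5.

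**Figure D2:**
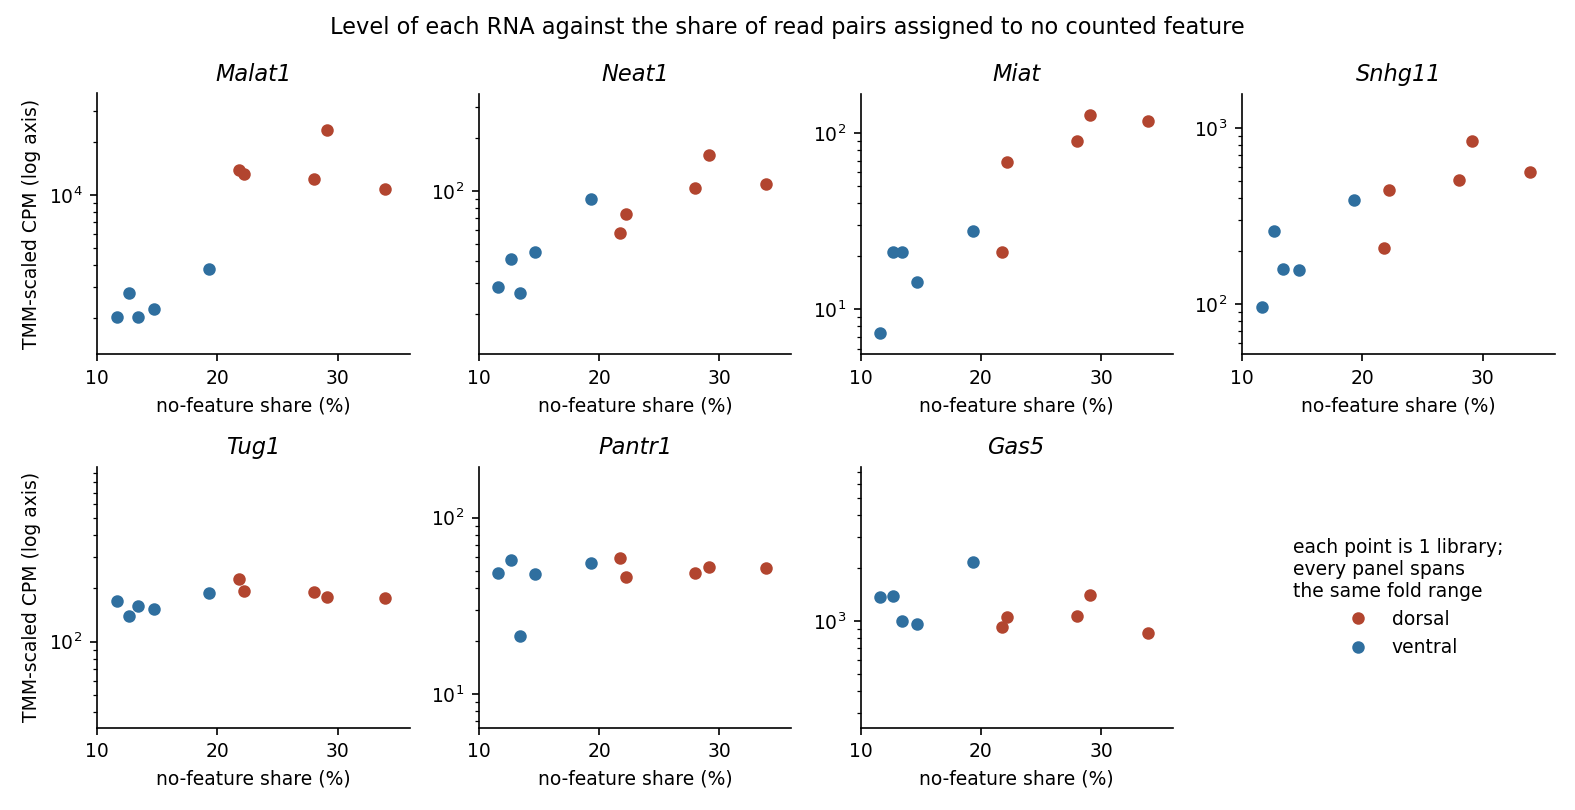
Level of each RNA in TMM-scaled CPM (log axis) against the no-feature share of the library in percent, 1 panel per RNA and 1 point per library, dorsal in red and ventral in blue. Neat1, Miat and Snhg11 are mostly higher where the share is larger in both groups, Malat1 steps up between the groups with no such order among the dorsal libraries, and Tug1, Pantr1 and Gas5 show no order common to both groups.

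In a model with the group and the share, fitted by edgeR over all 10 libraries, the slope per 10 percentage points of the share was 1.31 on the log2 scale for Miat (SE 0.38), 1.22 for Snhg11 (SE 0.37) and 1.18 for Neat1 (SE 0.29). Their unadjusted p-values from edgeR were 0.00361, 0.00593 and 0.00132, and after adjustment over all tested genes none passed (adjusted p = 0.177, 0.210 and 0.149). A positive slope at an unadjusted p below 0.05 was found in 6.17% of tested genes, and at an adjusted p below 0.05 in 0.00595%, which is 1 gene. The slope of Malat1 was 0.32 (SE 0.28, adjusted p = 0.622), with an interval of -0.27 to 0.92, and those of Gas5, Pantr1 and Tug1 were 0.32, 0.06 and -0.08 (adjusted p = 0.601, 0.938 and 0.840). These slopes rest on few libraries. Without dorsal replicate 3, the slope of Malat1 was 0.84, that of Neat1 1.8 and that of Gas5 0.74, and without ventral replicate 3 Malat1 stood at -0.0016, Gas5 at -0.09 and Tug1 at -0.24. Miat stood at 0.86 without dorsal replicate 1, and a replicate block brought Miat and Snhg11 to 0.28 and 0.04, so the order by share of these RNAs is a description and not a tested relation.

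The same model gave the difference between the groups at a fixed share. For Malat1 it remained, at a log2 fold change of 2.12 (SE 0.38, 95% confidence interval 1.3 to 2.95, edgeR adjusted p = 0.00556). For Miat it was 0.50 (interval -0.72 to 1.73, adjusted p = 0.637), for Neat1 -0.33 (interval -1.24 to 0.59, adjusted p = 0.687) and for Snhg11 -0.24 (interval -1.39 to 0.91, adjusted p = 0.829), so that the dorsal calls of these 3 RNAs did not hold once the share was in the model. Gas5 stood at -0.76 (adjusted p = 0.219), Tug1 at 0.35 (adjusted p = 0.322) and Pantr1 at 0.06 (adjusted p = 0.950). At a fixed share 5.76% of tested genes were higher in dorsal and 2.34% higher in ventral libraries at an adjusted p below 0.05. As no dorsal library has a share as low as any ventral one, these estimates rest on extending the slope between the groups, and the group and the share cannot be told apart by design.

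**Figure D3:**
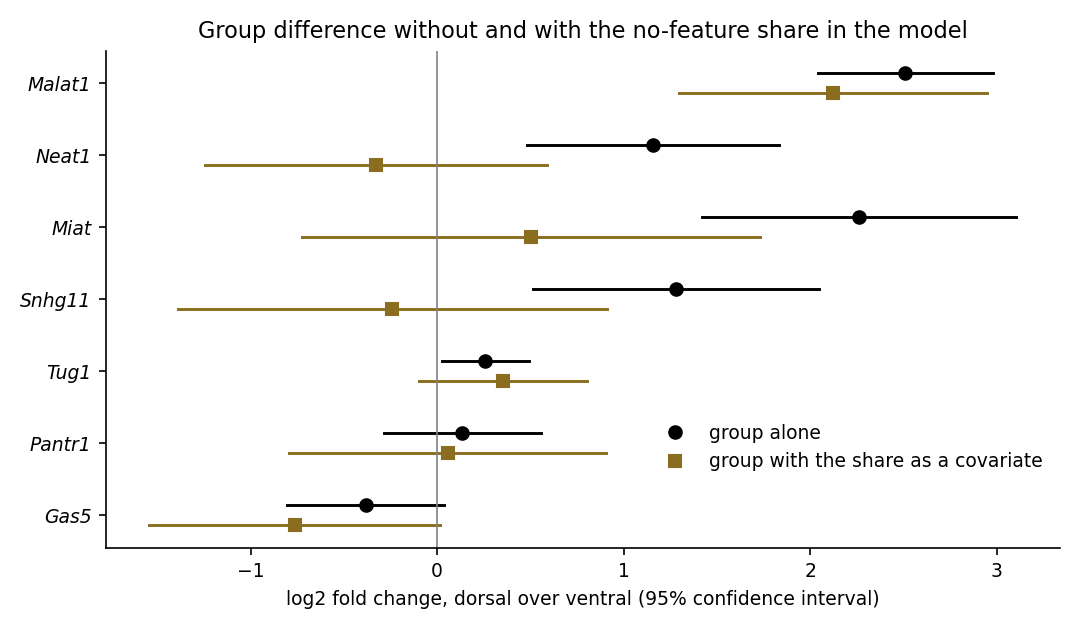
Log2 fold change of dorsal over ventral libraries for each RNA with its 95% confidence interval, from edgeR with the group alone (black circles) and with the no-feature share as a covariate (brown squares), over 5 dorsal and 5 ventral libraries. Malat1 stays at 2.12 with the share in the model, while Neat1, Miat and Snhg11 move to -0.33, 0.50 and -0.24 with intervals that include 0.

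Some markers of glia also moved with the group, and their part in the differences of the 7 RNAs was not tested. The counts of called markers can be read beside the 15.7% of all tested genes that were dorsal-enriched and the 9.85% that were ventral-enriched. With 7 or 8 markers a list, small counts lie near those shares. Of 8 oligodendrocyte markers 5 were dorsal-enriched and 0 ventral-enriched, and their summed level was 2599 to 3092 CPM in dorsal and 992 to 1844 CPM in ventral libraries. Of 8 astrocyte markers 4 were dorsal-enriched and 1, Aldh1l1, ventral-enriched, at 1943 to 2227 CPM against 842.0 to 1428 CPM. This sum was mostly Slc1a2, a glutamate transporter gene, and without it the other 7 summed to 282.3 to 372.5 CPM in dorsal and 245.3 to 402.2 CPM in ventral libraries. Of 8 interneuron markers 0 were dorsal-enriched and 3 ventral-enriched, at 3262 to 4354 CPM against 3943 to 5181 CPM. Microglial and endothelial markers, with 1 and 0 of 8 dorsal-enriched and none ventral-enriched, were low and overlapped, at 28.0 to 43.4 and 14.2 to 49.7 CPM in dorsal and 20.6 to 43.7 and 13.9 to 62.0 CPM in ventral libraries. Among neuronal lists, 3 of 7 mossy cell markers were dorsal-enriched and 2 ventral-enriched, 1 and 2 of 7 granule cell markers, and 1 and 1 of 7 pyramidal cell markers. Calb2, the calretinin gene and a marker of ventral mossy cells, stood at 65.0 ± 9.30 CPM in dorsal against 615.1 ± 94.4 CPM in ventral libraries (SD, n = 5 each, log2 fold change -3.24, edgeR adjusted p = 1.06e-08).

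Other RNAs of the same kind were taken from fixed lists. Of 18 tested nuclear long noncoding RNAs, 6 were dorsal-enriched and 1 was ventral-enriched, near the 31.2% and 10.1% of all tested long noncoding genes, and the median log2 fold change was 0.56 against 0.46 over that class. Ftx, a noncoding gene of the X-inactivation centre, had the largest dorsal enrichment of the list, at 28.4 ± 11.9 CPM in dorsal against 3.03 ± 1.54 CPM in ventral libraries (SD, n = 5 each, log2 fold change 3.32, edgeR adjusted p = 3.44e-05). Mir124a-1hg, the host of a neuronal microRNA, and the imprinted RNA Meg3 followed, at log2 fold changes of 2.21 and 1.83 (edgeR adjusted p = 0.000349 and 0.00133), and Kcnq1ot1, an imprinted antisense RNA, at 1.41 (adjusted p = 0.00187). Dlx6os1, an RNA of GABAergic neurons, was ventral-enriched (log2 fold change -0.61, edgeR adjusted p = 0.0043). The median slope on the share over this list was 0.26 per 10 points, against 0.03 over all tested genes and 0.24 over all long noncoding genes.

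Host genes of small nucleolar RNAs are the class of Gas5 and Snhg11. Of 12 other tested hosts 0 were dorsal-enriched and 2 ventral-enriched. The shares were 15.7% and 9.85% over all tested genes, and 31.2% and 10.1% over the long noncoding classes. The list had a median log2 fold change of -0.07. The slope on the share was positive for 10 of the 12, as for Snhg11. It was positive for 53.2% of all tested genes and for 60.1% of the long noncoding genes. The ventral-enriched hosts were Snhg6, at 20.4 ± 12.7 CPM in dorsal against 47.2 ± 21.8 CPM in ventral libraries (log2 fold change -1.16, edgeR adjusted p = 0.0196), and Snhg10 at 3.78 ± 0.96 and 7.67 ± 2.56 CPM (SD, n = 5 each, log2 fold change -0.99, adjusted p = 0.0213). Of 3 tested long noncoding RNAs known mainly from the cytoplasm none was called in either direction. Of these, 1700020I14Rik and 2900097C17Rik had adjusted p-values of 0.00189 and 0.00813 in edgeR but log2 fold changes of 0.48 and 0.43, under the fold threshold. The dendritic RNA Bc1 had a log2 fold change of 0.76 (adjusted p = 0.131).

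**Figure D4:**
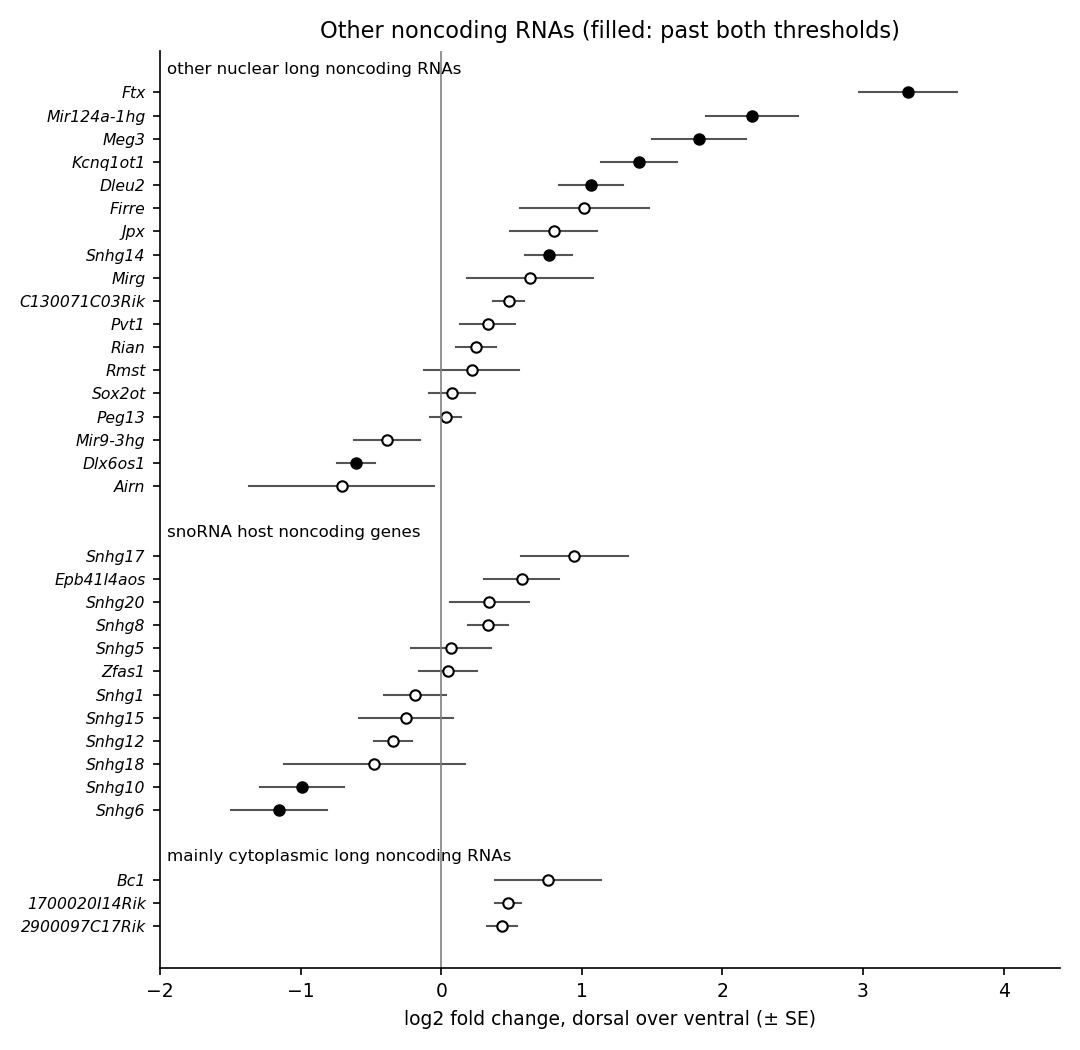
Log2 fold change of dorsal over ventral libraries (± SE, edgeR, 5 libraries a group) for 3 lists of other noncoding RNAs, with filled points for genes past both thresholds. In the nuclear list 6 filled points lie to the right of 0 and 1 to the left, and in the host list 2 filled points lie to the left.

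Genes for the proteins that work with these RNAs were called at rates that can be read beside the 15.7% of all tested genes that were dorsal-enriched and the 9.85% that were ventral-enriched. Of 13 paraspeckle protein genes 0 were dorsal-enriched and 2 ventral-enriched, Rbm14 and Hnrnpk (log2 fold changes -0.78 and -0.60, edgeR adjusted p = 0.0415 and 0.00385). Nono and Sfpq, the core paraspeckle proteins, had log2 fold changes of 0.23 and 0.14 (adjusted p = 0.162 and 0.351). Of 15 speckle protein genes 1 was called, the 3′ splice-site factor gene U2af1, which was ventral-enriched (log2 fold change -0.62, edgeR adjusted p = 0.00807). Of 6 splicing factors that bind Miat or Malat1, 1 was called: Qk, which encodes QKI and is also abundant in glia, was dorsal-enriched at 1330 ± 68.5 CPM against 760.1 ± 202 CPM (SD, n = 5 each, log2 fold change 0.81, edgeR adjusted p = 0.00104).

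Decay and chromatin partners were described in the same way. Of 10 factors of nonsense-mediated decay, the pathway that degrades spliced Gas5, 0 were dorsal-enriched and 2 ventral-enriched, Smg6 and Smg8 (log2 fold changes -0.61 and -0.71, edgeR adjusted p = 0.00778 and 0.0139). Of 16 tested genes of the nuclear RNA exosome and its cofactors 0 were dorsal-enriched and 2 ventral-enriched, the core subunit gene Exosc8 and the helicase gene Mtrex (log2 fold changes -0.82 and -0.60, edgeR adjusted p = 0.00589 and 0.00484), and the list median was -0.38. Of 11 genes of polycomb repressive complex 2, which binds many long noncoding RNAs, 2 were dorsal-enriched and 2 ventral-enriched. The catalytic subunit genes went opposite ways, with Ezh2 at 8.64 ± 2.31 CPM in dorsal against 3.42 ± 0.76 CPM in ventral libraries and Ezh1 at a log2 fold change of -0.81 (edgeR adjusted p = 0.0011).

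The genes around the 7 loci were read for overlap, because the sources used here do not state whether counting used strand. Exons of other annotated genes cover 30.4% of the exonic length of Miat, 17.8% of Gas5, 11.6% of Tug1, 7.72% of Malat1, 1.85% of Neat1, 1.56% of Snhg11 and none of Pantr1. Read pairs in such overlaps can be set aside as ambiguous, so levels of Miat, Gas5 and Tug1 are the less certain ones. The ambiguous share was 6.42 ± 0.55% in dorsal against 7.66 ± 0.99% in ventral libraries (SD, n = 5 each, two-sided exact permutation p = 0.0476), and this call was lost without some single libraries. Of the 29 genes overlapping the 7 loci, 24 had no count in any library. Those tested were Zbtb37 at the start of Gas5, Morc2a at Tug1 and 4930420N18Rik inside Pantr1. The gene 4930420N18Rik was dorsal-enriched (log2 fold change 3.14, SE 1.06, edgeR adjusted p = 0.0316), but its 67 counts in all keep it near the floor.

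Zbtb37, which runs from the start of Gas5 on the opposite strand, was dorsal-enriched at 60.5 CPM against 32.4 CPM (log2 fold change 0.90, edgeR adjusted p = 0.000991), while Gas5 itself, at -0.38, was not called. Morc2a had a log2 fold change of 0.02 (adjusted p = 0.961). Pou3f3, which starts 926 bases from Pantr1, was at 229.5 ± 49.7 CPM in dorsal against 177.7 ± 18.2 CPM in ventral libraries (SD, n = 5 each, log2 fold change 0.37, adjusted p = 0.0543). Frmd8, a coding gene beside Neat1, was not called, with a log2 fold change of 0.41 (adjusted p = 0.434). Mn1, a coding gene 756195 bases from Miat, was ventral-enriched (log2 fold change -0.72, edgeR adjusted p = 0.0206).

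The genes whose library-to-library pattern was most like that of each RNA were found by the Pearson correlation of deviations from the group means in log2 CPM, over 10 libraries and among 8758 genes with a mean of at least 10 CPM. For Snhg11 these were Meg3 and Zbtb16 (r = 0.990 and 0.986), and for Miat Mir124a-1hg was among them (r = 0.975), so that an RNA of the nuclear list stood among the closest for both. For Malat1 they were Arl6ip6 and Rrp1b (r = 0.983 and 0.979), for Neat1 Zfp503 and Gm8822 (r = 0.985 and 0.977), and for Gas5 Fam53a and mt-Nd2 (r = 0.982 and 0.957). For Pantr1 they were Acss1 and Dip2c (r = 0.989 and 0.979), and for Tug1 Eloc and Csnk1a1 (r = 0.968 and 0.958). The points share libraries and their depth, and the highest of 8758 values is large by selection, so the names are a description only.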

How the data were processed

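Per the labels, the authors precipitated ribosome-bound RNA by TRAP, amplified 500 pg with the Ovation kit, prepared TruSeq libraries and sequenced paired ends, and their processing notes name STAR 2.5.2b, GRCm38 and HTSeq 0.7.2. Strand setting and annotation release are not given in the sources used here. The files deposited by the authors hold whole-number counts for each Ensembl gene, without normalization. As the amplified reads carry no molecular identifiers, floors cover counting error only. Groups and replicate numbers came from the sample labels.

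Symbols, classes and coordinates came from GENCODE M21, which matched 54809 of 54838 identifiers, and starts from RefSeq tables of GRCm38.p6. Rows for no-feature and ambiguous pairs were kept out of library sizes and tests. A gene was tested if 2 or more libraries had CPM above 1, with edgeR 4.0.16 in R 4.3.3 (TMM, quasi-likelihood test, Benjamini-Hochberg adjustment), after the study's methods. Each standard error was taken from the fold change and the F statistic, and CPM values in the text are TMM-scaled. The slope on the no-feature share was tested in the same way with the group in the model. No library was a duplicate of another in its group: chi-square values over degrees of freedom were 4.36 to 45.1 in the 20 pairs. Scripts were tested on simulated data with known changes, of which 51.3% were recovered for the group difference and 23.4% for the slope. A slope that did not pass is therefore not shown to be absent.

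Named were the 7 RNAs, genes overlapping or flanking them, the called members of the lists with the largest changes, and 2 genes per RNA by likeness, of which some are not reported here. Genes named outside this rule are Drd2, Nono, Sfpq, 1700020I14Rik, 2900097C17Rik and Bc1, chosen after their values were seen. The members and lists were chosen with earlier results of these data known. Of the listed names, Mir100hg, Snhg4, Snhg7, Snhg16, Oip5os1 and Rn7sl1 had no match, Skiv2l2 is an older name of Mtrex, and Exosc6 was at 0. Alternatives covered scaling, filters, DESeq2 1.42.0, the replicate number as a block, GC content and length (mgcv 1.9.3), the share as a covariate and each library left out; the dispersions of edgeR 3 were added after seeing the data.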

Additional observations from a re-analysis of the deposited data

Results flagged for a closer look

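Values standing apart from the other 4 libraries of their group by Dixon's test were found in 3 of 20 groups tested, where chance gives about 1 in 20. Malat1 in dorsal replicate 2 was at 23296 CPM, against 10786 to 13930 CPM in the other dorsal libraries. Mitochondrially encoded messenger RNA in the same library was at 3517 CPM, against 2768 to 2911 CPM. Pantr1 in ventral replicate 2 was at 21.2 CPM, against 47.7 to 57.2 CPM in the other ventral libraries.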

How the results depend on the processing

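Malat1 was dorsal-enriched under all 23 alternatives, at log2 fold changes of 2.12 to 2.69. Neat1, Miat and Snhg11 were called under every alternative but the share as a covariate, and with single libraries left out they ranged from 0.93 to 1.51, 2.04 to 2.5 and 1.03 to 1.61. With the share as a covariate 834 genes were dorsal-enriched and 339 ventral-enriched, Malat1 was the 1 dorsal-enriched RNA of the 7, and Neat1, Snhg11 and Miat stood at -0.33, -0.24 and 0.50. With GC content and length corrected for, 2637 genes and 1 of the 7 RNAs, Gas5, were ventral-enriched, and the log2 fold changes of Tug1 and Pantr1 turned to -0.44 and -0.045. Pantr1 ranged from -0.028 to 0.23 with 1 library left out, being negative without ventral replicate 2. The cause of these changes was not tested. Over all alternatives the edgeR and DESeq2 adjusted p of Tug1 ranged from 0.00737 to 0.322 and that of Gas5 from 0.0114 to 0.433. Leaving out 1 library gave 2104 to 2670 dorsal-enriched and 1215 to 1815 ventral-enriched genes. The filter on low values moved the numbers of dorsal calls further. With CPM above 1 required in at least 5 libraries, 1776 genes were dorsal-enriched and 1238 ventral-enriched, and without a filter 3158 and 1838. Under both, 4 of the 7 RNAs were dorsal-enriched, and the shares called among all genes depend on this filter. Another scaling moved the median of all genes by at most 0.03 on the log2 scale.

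Over genes with a mean of at least 10 CPM, same-numbered libraries did not deviate together. Their correlations ranged from -0.04 to 0.16, mean 0.04, against -0.005 for different numbers. Of 10 libraries, 3 correlated best with their own number. Single RNAs could differ from this. Replicate 1 had the smallest no-feature share and the lowest Miat and Snhg11 in both groups, and replicate 3 the largest share. A block on replicate number brought the SE of the group difference from 0.39 to 0.16 for Miat and from 0.36 to 0.23 for Snhg11. It lowered that of Neat1 less and raised that of Malat1, Tug1, Pantr1 and Gas5. The numbers were not read as a pairing, but a pairing was not excluded. With the replicate number as a block, 2656 genes were dorsal-enriched and 1672 ventral-enriched, 4 of the 7 RNAs dorsal-enriched and 0 ventral-enriched. Block and correction for GC content and length together gave 2666 ventral-enriched genes, 1 of the 7 RNAs (Gas5), and -0.45 for Tug1. The slope of Neat1 on the share was 1.0 with the block, and those of Miat and Snhg11 were 0.28 and 0.04. The number of genes with a slope past the adjusted p, 1 in all, was 0 with the block and with the dispersions of edgeR 3, and 0 to 13 with 1 library left out.

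The difference in the ambiguous share, dorsal minus ventral, was -1.57 to -0.985 percentage points with 1 library left out, and it did not pass without dorsal replicate 1, 3, 4 or 5 or ventral replicate 2, 4 or 5 (exact permutation p = 0.0635 to 0.0952). With 5 libraries a group, intervals stay wide: that of Gas5 allows a log2 difference of -0.80.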
